A study of Mus musculus with 714 samples.

Results

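Wnt7a encodes a secreted Wnt ligand of the female reproductive tract epithelium, and its row is 1 of the 12479 gene rows in a table of 714 single cells. The cells came from the uterus of ICR mice, an outbred strain, and had been sorted for CD326 (EpCAM), an epithelial surface protein. They were prepared with CEL-seq, a linear amplification method for single cells that counts transcripts near their 3' ends. The labels give 5 ages, postnatal day (pnd) 0, 7, 14, 28 and 56, and no genotype, treatment or stage of the oestrous cycle and no animal, litter or pool, so each age stood as 1 sample. Differences between ages have no replicate check, no test was made from cells, and every interval is a 95% interval of counting error only. The sources used here do not say if counts were collapsed by molecular identifier, so they may not be independent molecules.

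Wnt ligands carry a lipid that the enzyme Porcn attaches and are brought to the cell surface by the carrier Wls. They bind Frizzled receptors together with Lrp5 or Lrp6, which spares beta-catenin from breakdown and lets it act with TCF/LEF factors on target genes. In the mouse, Wnt7a is made by the epithelium of the Müllerian duct and of the uterus that forms from it. Females that lack it have a uterus with abnormal muscle layers and no glands, and uterine glands normally bud from the epithelium in the weeks after birth.

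Depth differed between ages, which bears on the shares of cells given below. The median total per cell was 3037 counts at pnd0, 2492 at pnd7, 1782 at pnd14, 1600 at pnd28 and 1670 at pnd56, and the deepest cell had 9332. The title numbers of the cells fall into 10 blocks of 96, each with cells of 1 age. Blocks 1 and 2 hold 88 and 85 cells of pnd0, and blocks 5, 6 and 10 hold 88, 87 and 92 cells of pnd7. Blocks 3, 4 and 7 hold 70, 24 and 79 cells of pnd14, block 9 the 56 cells of pnd28 and block 8 the 45 cells of pnd56. What a block stands for is not stated, and block and age cannot be told apart. Krt18, a keratin of simple epithelia, stood between 3602 and 5278 counts per 1000000 counts (CPM) at the 5 ages, and Epcam, the gene of the sorted protein, between 293.3 and 769.3 CPM. In sums over cells, fewer cells with a transcript and less transcript per cell cannot be told apart, so shares of cells are given beside the levels.

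Wnt7a stood high at birth and in the first week and was lower at pnd14. Its summed level was 272.9 CPM [232.1, 318.8] at pnd0 and 289.2 CPM [251.6, 330.9] at pnd7. At pnd14 it was 76.3 CPM [50.3, 110.96] from 27 counts, at pnd28 176.6 CPM [102.9, 282.8] from 17 counts and at pnd56 73.3 CPM [26.9, 159.5] from 6 counts. The pnd14 level was 3.79-fold lower than that of pnd7, an interval of 2.53 to 5.89, and the pnd56 level was 3.72-fold lower than that of pnd0 [1.67, 10.3].

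**Figure D1:**
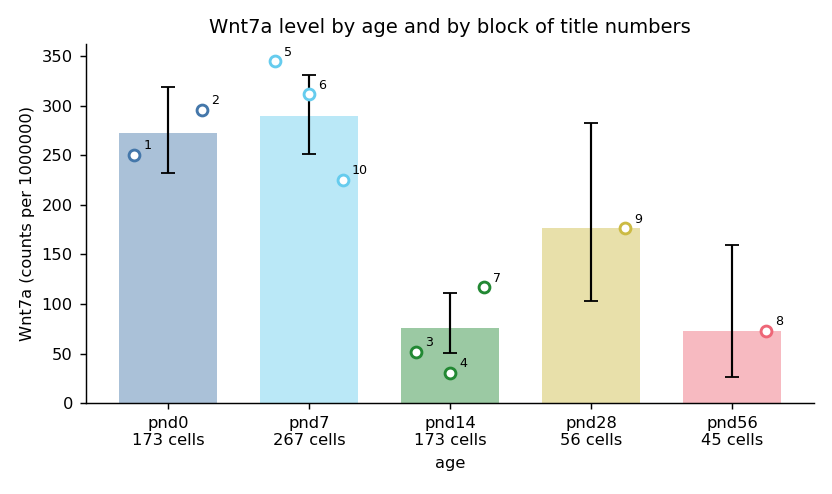
Wnt7a level in CPM (y axis) at each age (x axis); bars are sums over all cells of an age, error bars are exact Poisson 95% intervals of counting error, and open circles are single blocks with their number. All pnd0 and pnd7 blocks lie between 225.3 and 344.9 CPM, and the 3 pnd14 blocks lie between 30.6 and 117.2 CPM.

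The block levels kept the early and the pnd14 cells apart, but not all of their intervals did. Block 1 was at 250.5 CPM from 74 counts and block 2 at 295.9 CPM from 85 counts, both of pnd0. Of the pnd7 blocks, block 5 was at 344.9 CPM from 84 counts, block 6 at 311.7 CPM from 64 and block 10 at 225.3 CPM from 64. Blocks 3, 4 and 7 of pnd14 were at 51.8, 30.6 and 117.2 CPM, so no pnd14 block reached the lowest block of the earlier ages. The interval of block 7, 69.5 to 185.25 CPM, overlapped that of block 10, 173.5 to 287.7 CPM. The value of block 4 rests on 2 counts in 24 cells, and block 7 holds 18 of the 27 counts of pnd14. Without block 7, the pnd14 level was 44.9 CPM and the log2 ratio of pnd14 over pnd7 moved from −1.92 [−2.56, −1.34] to −2.69 [−3.84, −1.74].

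In order of level the ages were pnd7, pnd0, pnd28, pnd14 and pnd56, and of the 4 neighbouring pairs in this order only pnd28 and pnd14 had an interval of their log2 ratio that did not include 0. The log2 ratio of pnd7 over pnd0 was 0.08 [−0.22, 0.39]. This interval of counting error reached from 1.16-fold lower to 1.31-fold higher at pnd7, and does not cover differences between animals or between cells. For pnd28 over pnd0 it was −0.63 [−1.44, 0.10], and for pnd56 over pnd14 −0.06 [−1.62, 1.25]. The log2 ratio of pnd28 over pnd14 was 1.21 [0.24, 2.14], 2.32-fold higher. That interval reached no difference without block 3, at 0.95 [−0.07, 1.96], and without the pnd28 cell of the largest count, at 0.88 [−0.20, 1.88]. A higher level at pnd28 than at pnd14 therefore rests on few counts. For pnd56 over pnd28 the ratio was −1.27 [−2.90, 0.14]. Over all genes with at least 20 counts the median log2 ratio of the 4 neighbouring ages was, in order of age, −0.03, −0.10, −0.23 and 0.06, and that of pnd56 over pnd0 was −0.45. A level at least 2-fold lower at pnd14 than at pnd7, as Wnt7a had, was found for 14.3% of 5553 genes. At least 2-fold higher at pnd28 than at pnd14, again as Wnt7a, were 11.9% of 3785 genes, and 24% were lower. From pnd28 to pnd56 14.8% of 1797 genes were at least 2-fold higher and 16.5% lower, and against pnd0 10.3% of 4725 genes were higher at pnd56 and 34.9% lower, both lower shares on the side of Wnt7a.

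Most cells had no Wnt7a count at any age. A count was present in 66 pnd0 cells, 38.2% [30.9, 45.8] of that age, and in 90 pnd7 cells, 33.7% [28.1, 39.7]. At pnd14 it was 13 cells, 7.51% [4.06, 12.5], at pnd28 7 of 56, 12.5% [5.18, 24.1], and at pnd56 3 of 45, 6.67% [1.40, 18.3] (exact Clopper-Pearson intervals). The median cell thus had 0 counts at each age. The highest cell had 8 counts at pnd0, 10 at pnd7, 6 at pnd14, 4 at pnd28 and 3 at pnd56.

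Cells with a count were deeper, so shares were also taken with each cell thinned to 1500 counts. At pnd0 the median depth was 3864 counts in cells with Wnt7a and 2687 in those without, and at pnd7 it was 2682 and 2434. Thinning left out 9, 13, 60, 23 and 20 shallower cells of the 5 ages and kept 33 cells of pnd28 and 25 of pnd56. At this equal depth the share was 27.4% [20.8, 34.9] at pnd0, 25.98% [20.7, 31.8] at pnd7, 8.85% [4.33, 15.7] at pnd14, 21.2% [8.98, 38.9] at pnd28 and 8% [0.984, 26.03] at pnd56. The difference of pnd14 from pnd7 was −17.1 percentage points, and their intervals did not overlap at this depth. The intervals of pnd28 and pnd56 overlapped those of every other age. By block, the thinned share was 27.1% and 27.8% in the pnd0 blocks 1 and 2, and 25.6%, 28.05% and 24.4% in the pnd7 blocks 5, 6 and 10. Each of these 5 shares lay within the interval of each of the others. The pnd14 blocks 3, 4 and 7 had 6.82% [1.43, 18.7], 5.56% [0.141, 27.3] and 11.8% [4.44, 23.9]. The intervals of blocks 4 and 7 overlapped those of all pnd0 and pnd7 blocks, and that of block 3 those of all but block 6. Single blocks thus did not separate the ages by share.

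**Figure D2:**
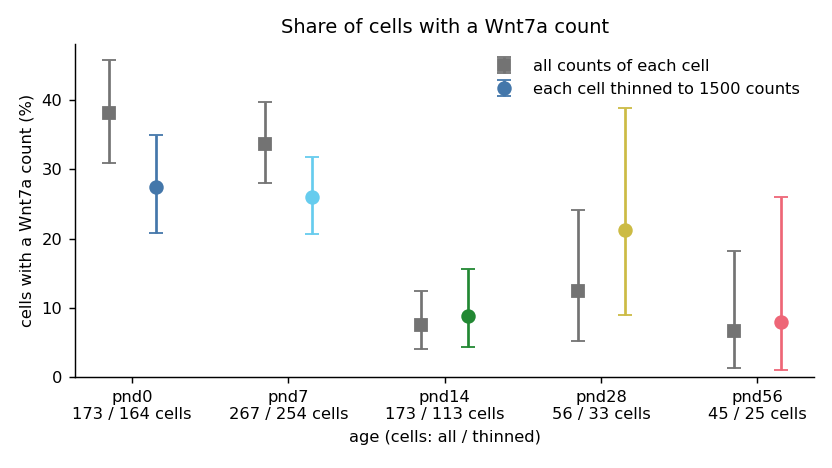
Share of cells with at least 1 Wnt7a count in percent (y axis) at each age (x axis), from all counts of each cell (grey squares) and with each cell thinned to 1500 counts (coloured circles); bars are exact 95% binomial intervals. At equal depth pnd0 and pnd7 lie at 27.4% and 25.98% and pnd14 at 8.85%.

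Among the cells that had Wnt7a, most had 1 or 2 counts at pnd0, pnd7 and pnd14. At pnd0 there were 23 cells with 1 count, 20 with 2, 11 with 3 and 12 with 4 or more. At pnd7 the same classes held 37, 23, 14 and 16 cells, and at pnd14 8, 1, 2 and 2 cells. The level within cells with a count was 603.6 CPM at pnd0, 805.3 at pnd7, 915.3 at pnd14, 1093 at pnd28 and 773.5 at pnd56. These levels are inflated by the choice of cells with a count, more so in shallow cells, and depth was lower at the later ages. The 17 pnd0 cells with the most counts held 49.1% of all Wnt7a counts of that age, and the 27 such pnd7 cells held 56.6%. At 1500 counts per cell the variance over the mean of Wnt7a was 1.69 at pnd0 and 1.66 at pnd7. The median over the 1029 pnd0 and 1688 pnd7 genes with at least 50 thinned counts was 1.89 and 1.85, and 33.7% and 33% of these genes had a lower value than Wnt7a.

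Shallow cells had a lower Wnt7a level at some ages, and marker genes set some of the pnd0 cells apart. The 28 pnd0 cells with fewer than 2000 counts had 3 Wnt7a counts, 66.6 CPM [13.7, 194.7], against 260.7 CPM [203.6, 328.8] in cells of 2000 to under 4000 counts and 320.5 CPM [255.98, 396.3] in deeper ones. At pnd7 the same classes of depth had 338.99, 285.6 and 262.2 CPM, with the highest level in the shallow cells. At pnd14 the shallow cells had 37.8 CPM [13.9, 82.3]. Cells of 2000 to under 4000 counts had 149.7 CPM [92.7, 228.8], below pnd7 cells of that depth, and deeper pnd14 cells had no count. At pnd28 the shallow cells had 101.2 CPM [37.1, 220.3], against 297.6 CPM [148.6, 532.6] at 2000 to under 4000 counts. The same classes had 73.8 and 81.7 CPM at pnd56. These differences between ages and depths were not tested. The shallow pnd0 cells came equally from both blocks, 14 each. They had 1688 CPM of Upk3a, a urothelial membrane protein gene, against 325.5 CPM in the other pnd0 cells, while Krt18 was at 6552 and 5171 CPM. In the 8 pnd0 cells with at least 3 Upk3a counts, Wnt7a had 1 count, 49.1 CPM [1.24, 273.8], against 281.0 CPM [238.9, 328.4] in the other cells of that age. Their part in the low level of shallow pnd0 cells was not tested.

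Muscle-marked cells gave no Wnt7a, but were too few to set a background. At pnd14 12 cells had counts of at least 3 of the 4 measured smooth muscle markers, Cnn1, Des, Myl9 and Mylk, and none of them had a Wnt7a count. A count of 0 in their 21222 counts allows up to 141.4 CPM, which is above the level of pnd14 itself, so a difference was not detectable at this depth. Without them pnd14 stood at 81.1 CPM. Over all ages 18 cells had counts of just 2 of these markers, so the choice is a cut through a range. All 13 pnd14 cells with Wnt7a had a Krt18 count, as did 6 of 7 at pnd28 and 3 of 3 at pnd56. Krt18 was also common in cells without Wnt7a, with a count in 38 of 49 at pnd28, in 38 of 42 at pnd56 and in all but 14 at pnd14. The 14 pnd14 cells with no Krt18 count had no Wnt7a count either. This allows up to 116.2 CPM by the same floor and 142.9 CPM by the exact interval.

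At pnd14, pnd7 and pnd56, cells chosen by other genes of those ages had Wnt7a levels whose intervals overlapped those of the remaining cells. Such an overlap does not show equal levels, and intervals of the ratios are not given for these splits. The 19 pnd14 cells with at least 4 counts of Ovgp1, the oviductal glycoprotein gene, had 1 Wnt7a count, 26.2 CPM [0.665, 146.2], against 82.3 CPM [53.8, 120.6] in the other cells. In pnd14 cells with a count of Acot7, an acyl-CoA thioesterase gene, Wnt7a was at 96.5 CPM [60.5, 146.1] against 39.7 CPM [12.9, 92.6]. In pnd7 cells with Aldh1a1, whose enzyme makes retinoic acid, Wnt7a was at 273.7 CPM [203.8, 359.8] against 294.6 CPM [250.8, 343.7] without. In pnd7 cells with an Epcam count it was at 345.5 CPM [286.9, 412.5] against 236.96 CPM [190.5, 291.3] without, the widest gap of the 3 splits of that age, with intervals that overlap by little. In pnd7 cells with Esr1, the oestrogen receptor alpha gene, it was at 286.9 CPM [179.8, 434.4] against 289.5 CPM [249.8, 333.7]. At pnd56 5 of the 6 Wnt7a counts lay in cells with Ltf, the lactoferrin gene, at 124.7 CPM [40.5, 290.97] against 23.9 CPM [0.606, 133.3].

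Of the 19 other Wnt ligand genes, 8 have a row and the rest were not analysed here. None of the 5 with more than 30 counts had the order of ages that Wnt7a had. Wnt11, a ligand linked to cell movement, had 61.8 CPM at pnd0, 43.7 at pnd7, 234.4 at pnd14, 62.3 at pnd28 and no count at pnd56. Its log2 ratio of pnd14 over pnd7 was 2.42 [1.82, 3.06], of opposite sign to that of Wnt7a, and 2.5 without the muscle-marked cells. The pnd14 blocks 3, 4 and 7 had 133.2, 244.9 and 319.1 CPM of Wnt11, and the pnd7 blocks 5, 6 and 10 had 24.6, 53.6 and 52.8 CPM. Wnt4, which acts in stroma and Müllerian duct formation, had 108.1, 76.4, 110.2, 62.3 and 232.01 CPM over the 5 ages, and its interval at pnd56, 139.7 to 362.3 CPM, lay above that of pnd0, 83.1 to 138.3 CPM. Wnt5a, a mostly stromal ligand, had 154.5, 92.8, 107.3, 62.3 and 12.2 CPM, the last from 1 count.

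Wnt6 and Wnt10a were lower at pnd7 than at pnd0, where Wnt7a did not differ beyond counting error. Wnt6 was at 87.5 CPM at pnd0 and 16.4 at pnd7, a log2 ratio of −2.42 [−3.46, −1.49], and Wnt10a at 41.2 and 5.46 CPM, −2.92 [−4.90, −1.37]. Wnt10a was again at 114.3 CPM [57.1, 204.5] at pnd28. Wnt16 had 13 of its 21 counts at pnd14, and Wnt5b and Wnt9a had 1 count each in all cells. Of 5 other ligands with at least 20 counts over pnd0 and pnd7, 2 were at least 2-fold lower at pnd7 and none higher, where 7.61% of 5953 genes were lower and 4.94% higher. Of 3 over pnd7 and pnd14, 1 was at least 2-fold higher and none lower, where 10.7% of all genes were higher.

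**Figure D3:**
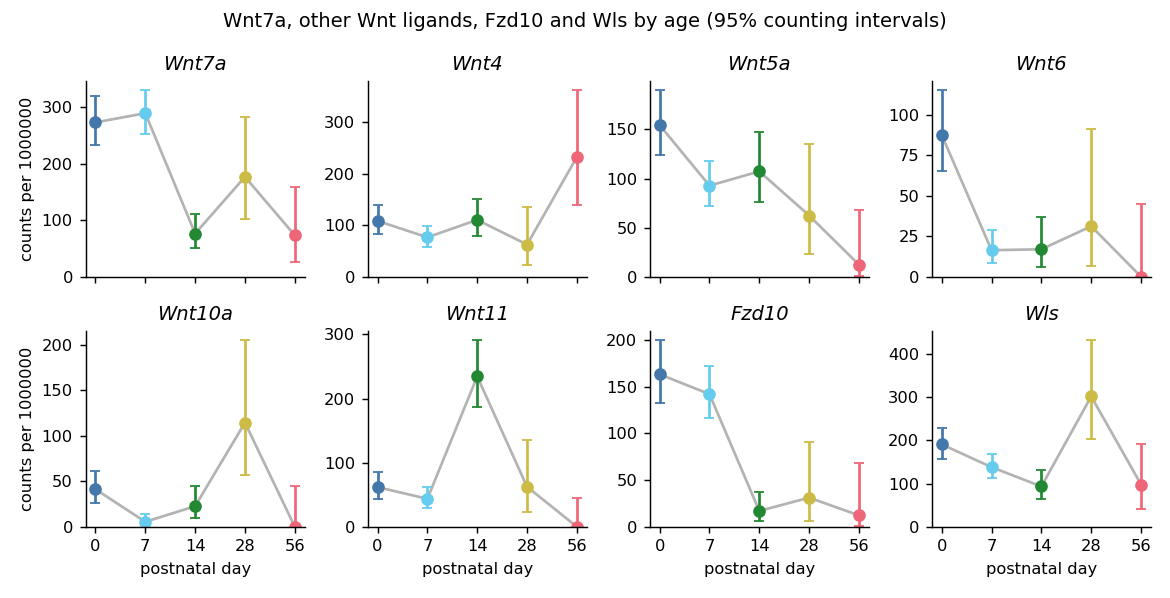
Levels in CPM (y axes, each from 0 with its own scale) of Wnt7a, 5 other Wnt ligands, the receptor Fzd10 and the carrier Wls against postnatal day (x axis, 5 ages at equal spacing); points are sums over all cells of an age and bars exact Poisson 95% intervals. Wnt7a and Fzd10 step down between pnd7 and pnd14, and Wnt11 stands at 234.4 CPM at pnd14 against 43.7 CPM at pnd7.

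Of the genes that release Wnt ligands, 2 had at least 20 counts over each of the early pairs of ages. Wls, the carrier that all lipid-bearing Wnt ligands use, had 190.5 CPM at pnd0, 137.8 at pnd7, 93.2 at pnd14, 301.3 at pnd28 and 97.7 at pnd56. Its log2 ratio of pnd28 over pnd14 was 1.69 [0.92, 2.46]. Wls lay lower at pnd14 than at pnd7, higher at pnd28 and lower again at pnd56, the directions that Wnt7a had. From pnd0 to pnd7 Wls lay lower, where Wnt7a did not. The Wnt7a interval for pnd56 over pnd28 included no difference. Tmed2, a cargo protein of the early secretory pathway, had 142.5, 245.6, 206.2, 187.02 and 341.9 CPM.

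Among receptors, Fzd10 was lower at pnd14 than at pnd7, as Wnt7a was. Fzd10, a Frizzled receptor, was at 163.1 CPM at pnd0, 141.9 at pnd7, 16.9 at pnd14, 31.2 at pnd28 and 12.2 at pnd56, the last 3 from 6, 3 and 1 counts. Its log2 ratio of pnd14 over pnd7 was −3.07 [−4.54, −1.90]. Fzd2 and Fzd8 were also at least 2-fold lower at pnd14, at −1.34 [−2.64, −0.23] and −1.59 [−2.88, −0.51]. Of 6 receptors with at least 20 counts, 3 were lower in this pair and none higher, with a median log2 ratio of −1.10 against −0.10 over all genes, of which 14.3% were lower and 10.7% higher. Fzd6 had 48.1, 109.2 and 163.8 CPM at pnd0, pnd7 and pnd14, with 1.18 [0.55, 1.86] and 0.59 [0.07, 1.09] for the 2 steps. Ryk, a kinase-like Wnt co-receptor, had 137.3, 144.6 and 98.9 CPM at these ages, and its log2 ratio of pnd14 over pnd7 was −0.55 [−1.14, 0.01].

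Regulators of Wnt signalling that act at the cell surface were sparsely counted. Lgr4, an R-spondin receptor, had 9.55 CPM at pnd7 and 76.3 at pnd14, a log2 ratio of 2.997 [1.76, 4.44], while Lgr5, its stem cell-linked relative, had 35.5 and 39.5 CPM. Rnf43, a ligase that removes Frizzled receptors, had 56.6, 54.6 and 36.7 CPM at pnd0, pnd7 and pnd14. Rspo1, an R-spondin made by stroma, had no count at pnd0, 1 at pnd7 and 17 at pnd14. Of the antagonists, Sfrp2 was lower at pnd7 than at pnd0, with 30.02 against 89.3 CPM, and Sfrp1 was at 124.7 CPM at pnd28 against 36.7 at pnd14. Markers of stroma, Wnt5a among them, made up 0.0217% of counts at pnd7, 0.0876% at pnd14 and 0.341% at pnd28. Their part in these values was not tested.

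Most transducers in the cell lay within a 2-fold range between pnd7 and pnd14. Ctnnb1, the gene of beta-catenin, was at 1286 CPM at pnd0, 1527 at pnd7, 1000 at pnd14, 966 at pnd28 and 1099 at pnd56, with −0.61 [−0.79, −0.44] for pnd14 over pnd7. Gsk3b, a kinase that marks beta-catenin for breakdown, had −0.02 [−0.34, 0.29] in that pair. Of the 13 transducers measured there, Tcf7l2, a TCF/LEF factor, was the 1 at least 2-fold higher, with 129.9 against 40.9 CPM and a log2 ratio of 1.67 [0.97, 2.38], and none was at least 2-fold lower. Over all genes 10.7% were higher and 14.3% lower. Their median was −0.0047 against −0.10 over all genes.

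Of 6 Wnt target genes with at least 20 counts over pnd7 and pnd14, 3 were at least 2-fold lower at pnd14 and none higher, where 14.3% of all genes were lower and 10.7% higher. Axin2, a feedback inhibitor and common readout of the pathway, had 39.5 CPM at pnd0, 54.6 at pnd7 and 25.4 at pnd14, a log2 ratio of −1.10 [−2.33, −0.04] for the second step. It had no count at pnd28 or pnd56, which by a floor of 3 counts allows up to 31.2 and 36.6 CPM. Myc, a growth regulator, had 12.01, 64.1 and 8.47 CPM at the first 3 ages and 166.2 at pnd28. Sox9 was the other lower gene, at −1.04 [−3.07, 0.58], an interval that includes no difference. Ephb3, a guidance receptor, was at 170.5 and 206.2 CPM, 0.27 [−0.16, 0.70]. The targets are also controlled by other pathways, so their counts are not a readout of Wnt7a.

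Pax2 had 276.3, 338.4, 257.03, 197.4 and 268.6 CPM over the 5 ages and Emx2 212.8, 195.1, 146.9, 103.9 and 61.1 CPM, and both genes are needed for the duct to form. Of 6 measured members, Hoxd9 was at least 2-fold higher at pnd14, at 2.25 [1.12, 3.49], and Sox9 at least 2-fold lower, and the median was −0.31. These counts are near the shares over all genes, 10.7% higher and 14.3% lower. Esr1 had 17.2, 92.8, 468.9, 374.0 and 512.9 CPM over the 5 ages. Its levels were higher at pnd14, pnd28 and pnd56 than before. Against pnd7, Wnt7a was lower beyond counting error at pnd14 and at pnd56, −1.98 [−3.44, −0.84], but not at pnd28, −0.71 [−1.52, 0.00]. From pnd0 to pnd7 Esr1 rose while Wnt7a did not differ beyond counting error.

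The genes most like Wnt7a were sought among 2009 others with at least 200 counts, by Pearson's r of log2(CPM + 10) over the 10 blocks. The points share ages and differ in depth, and what a block stands for is not stated, so r is a description. Ddb1, a DNA damage and ubiquitin ligase protein gene, came first at r = 0.97, with 726.04, 709.5, 361.5, 457.2 and 427.4 CPM over the 5 ages. Yif1b, a membrane trafficking gene, followed at 0.94, then Wfdc2, a whey acidic protein of secretory epithelia, at 0.94, Chchd1 at 0.93, Zcchc11, an RNA uridyl transferase gene, at 0.93 and Nfx1 at 0.92. Stra6, the retinol receptor, had r = 0.91 with a much steeper course, 1220.4, 1053, 70.6, 124.7 and 61.1 CPM, and Fkbp10, a collagen chaperone gene, had 0.91. Over all 2009 genes the median r was 0.18, and 11 genes were above 0.9. Fzd10 had r = 0.82.

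Cells with and without Wnt7a were then compared at the 2 ages that had enough of both, with 66 cells that had a count at pnd0 and 90 at pnd7 set against the remaining cells of each age. The class was set by the Wnt7a count, its own row was left out of all totals, and many cells without a count may hold the transcript, since capture is incomplete. All values below are descriptions of these cells. At pnd0 13.3% of 2482 genes with at least 50 counts lay at least 1.5-fold higher in cells with Wnt7a and 8.26% lower. At pnd7 these shares were 8.51% and 8.86% of 2878 genes. With class and levels at equal depth, the shares higher and lower were 8.85% and 10.9% at pnd0 and 8.89% and 11.4% at pnd7.

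The differences at pnd0 did not recur at pnd7 over the transcriptome. Across the 2338 genes measured at both ages, the log2 ratios of cells with over without Wnt7a had a Pearson r of −0.01 and a Spearman rho of 0.00, and 50.4% of genes lay on the same side. The 2 ages share no cells, and genes are not independent replicates. At least 1.5-fold higher at both ages were 1.2% of genes, and 0.727% were lower at both. In all 5 blocks of the 2 ages 75 genes, 3.21%, lay higher and 59 genes, 2.52%, lay lower. Each of the 30 other patterns of sides over the 5 blocks held between 1.84% and 4.19% of genes, with a median of 2.95%. The 2 patterns without a change of side thus lay within the range of the mixed ones.

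**Figure D4:**
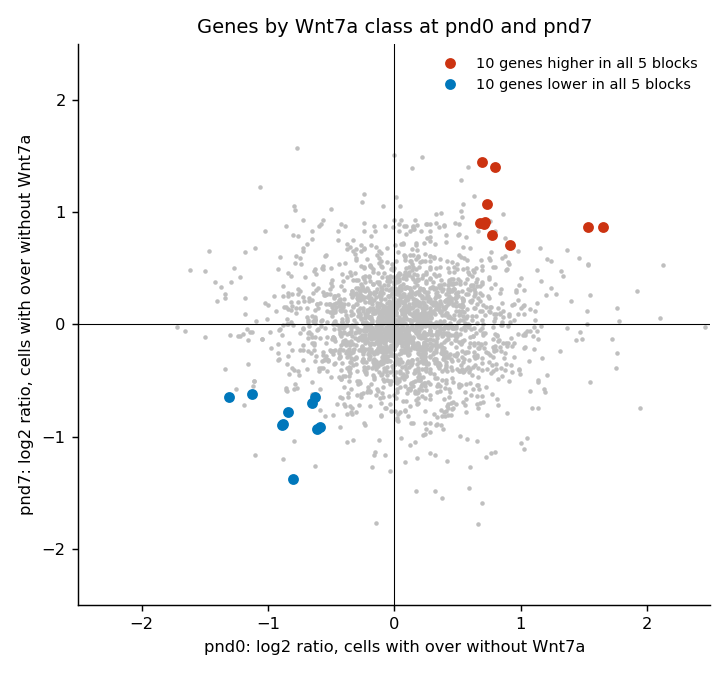
Log2 ratio of summed levels in cells with over without a Wnt7a count at pnd0 (x axis) and pnd7 (y axis) for 2338 genes (grey points, 3 of them outside the axes); red and blue points are the 10 highest and 10 lowest genes that kept their side in all 5 blocks. The cloud has no slope, with r = −0.01, and the coloured points sit at its edge because they were chosen there.

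The genes named here are the extremes of that description and passed no test. Sh3pxd2b, an adaptor of podosomes, was at 235.5 CPM in pnd0 cells with Wnt7a and 81.5 CPM in those without, a log2 ratio of 1.53 [0.85, 2.25], and at 197.7 and 108.6 CPM at pnd7, 0.86 [0.28, 1.45]. With the class and the levels both taken at equal depth it kept this side, at 2.02 [1.08, 2.99] and 1.57 [0.70, 2.44], and it was counted in 31.1% of pnd0 cells with Wnt7a against 12.6% without, and in 21.2% against 9.04% at pnd7. Smpd1, the acid sphingomyelinase gene, had 0.73 [0.23, 1.23] and 1.07 [0.61, 1.54], and 1.52 and 0.75 at equal depth. Other genes on the higher side were Pmpca, Zfhx3, Ubp1, Med10, Tssc1 and Wsb2. At equal depth Pmpca turned to −0.04 at pnd0 and Med10 to −0.19 at pnd7.

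The 10 lower genes were Utp23, Pan3, B3gnt1, Zfp318, Dyrk1a, Eml4, Glb1, Ube2a, Nifk and Ube2c. Utp23, a ribosome assembly gene, had −0.89 [−1.84, −0.01] at pnd0 but 0.57 at equal depth. Ube2c, which drives the exit from mitosis, was at 106.4 and 159.8 CPM at pnd0, −0.59 [−1.31, 0.11], and at 106.5 and 200.1 CPM at pnd7, −0.91 [−1.57, −0.29]. It is also a member of the list of G2 and M phase genes.

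The summed counts of the 17 mitotic genes that have a row were lower in cells with Wnt7a, but the members did not share one side. At least 1.5-fold lower were 2 of the 4 members with at least 50 counts at pnd0, where 8.26% of all genes were, and 2 of 5 at pnd7, where 8.86% were, and none was higher. At pnd0 the sum was 710.3 CPM in cells with Wnt7a and 874.1 CPM in those without, a log2 ratio of −0.30 [−0.57, −0.03], and at pnd7 733.8 and 945.3 CPM, −0.37 [−0.62, −0.12]. Each of the 5 blocks had the sum lower in cells with Wnt7a, from −0.13 in block 10 to −0.64 in block 6, and the intervals of blocks 5 and 6 did not include 0. At equal depth the ratios were −1.08 [−1.74, −0.47] and −0.55 [−0.99, −0.14]. Birc5, the survivin gene of the mitotic spindle, had −1.26 [−2.09, −0.48] at pnd0 and −0.57 [−1.18, 0.00] at pnd7, and was lower in all 5 blocks. Top2a, a topoisomerase of dividing cells, had 0.42 and −0.29, and Nusap1, a spindle protein gene, 0.50 and 0.29.

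A few cells held many of these counts, a spread that counting intervals do not cover. At equal depth the 10% of pnd0 cells without Wnt7a that had most held 60% of their G2 and M phase counts, and those of pnd7 held 48.6%. At least 3 such counts were found in 3 of 45 pnd0 cells with Wnt7a, 6.67% [1.40, 18.3], and in 17 cells without, 14.3% [8.55, 21.9]. At pnd7 it was 9 of 66 cells, 13.6% [6.43, 24.3], and 33 cells without, 17.6% [12.4, 23.8]. These shares overlap in their intervals at both ages. The list of S phase genes had −0.11 [−0.29, 0.06] at pnd0 and 0.08 [−0.07, 0.23] at pnd7.

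**Figure D5:**
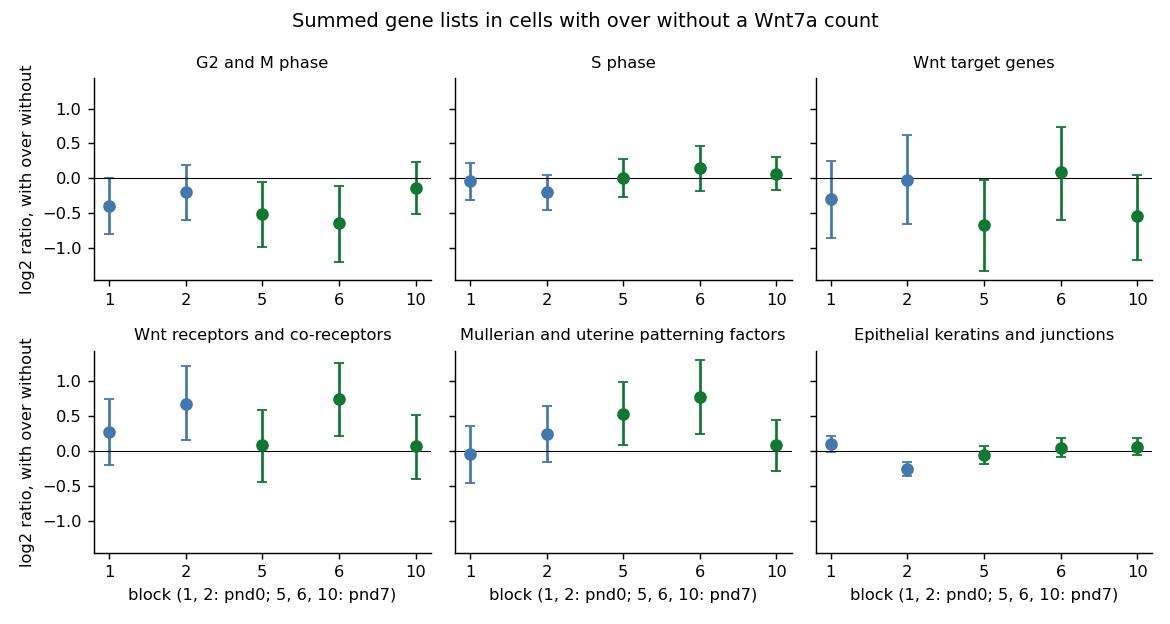
Log2 ratio of the summed counts of 6 gene lists in cells with over without a Wnt7a count (y axis) in each block (x axis; blue, pnd0; green, pnd7), with exact 95% intervals of counting error. The G2 and M phase sum lies below 0 in all 5 blocks, from −0.64 to −0.13, while keratins and junctions lie between −0.26 and 0.10.

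Some epithelial genes differed between the classes at pnd0 beyond counting error. The sum of keratin and junction genes was at 9424 CPM in pnd0 cells with Wnt7a and 9800 CPM in those without, −0.06 [−0.13, 0.02], with −0.26 [−0.36, −0.16] in block 2, and at 9220 and 9212 CPM at pnd7, 0.00 [−0.07, 0.07]. Of 8 members of this list with at least 50 counts at pnd0, 1 was at least 1.5-fold higher and 1 lower, where 13.3% and 8.26% of all genes were. Their median log2 ratio was 0.13 against 0.06 over all genes. The higher one was Cdh1, at 0.63, with 0.25 at pnd7. Krt7, a keratin of simple epithelia, was the lower one. Krt7 had −1.30 [−1.59, −1.02] at pnd0, with 524.2 against 1291 CPM, and −0.09 at pnd7. It was named after its values were seen, and 1 pnd0 cell held 53 of its counts. Luminal epithelium markers had −0.27 [−0.47, −0.07] at pnd0 and 0.13 [−0.03, 0.28] at pnd7. Fxyd3, an ion pump regulator among them, had −1.14 [−1.82, −0.50] at pnd0, with −0.17 in block 1 and −1.84 in block 2. Muscle markers had −0.31 [−1.32, 0.67] and 0.66 [0.15, 1.18], and stroma markers 0.56 [0.00, 1.12] and −0.20 [−0.71, 0.29]. The stroma list includes Wnt5a, its 1 member with at least 50 counts at pnd0, where Wnt5a had 0.998. The stroma sum at pnd0 is therefore not separate from the Wnt5a value given below, and says little of the other stroma markers. The erythroid list made up 2.43% of counts in pnd0 cells without Wnt7a against 0.0254% in those with. This came from 2 cells with at least 500 counts of Hba-a1, neither of which had Wnt7a, and without them it was 0.0405%.

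Within the Wnt pathway some sums and members differed between the classes beyond counting error at 1 age, and none of those named here did so at both. Wnt receptors summed to 0.42 [0.08, 0.76] at pnd0 and 0.25 [−0.03, 0.53] at pnd7, on the higher side in all 5 blocks, but 0.00 [−0.45, 0.43] at pnd7 at equal depth. Ryk had 0.28 [−0.39, 0.95] and 0.78 [0.20, 1.36], and Fzd10 0.49 [−0.12, 1.11] and −0.08 [−0.71, 0.52]. Fzd8, with 12 of its 14 pnd0 counts in cells with Wnt7a, had 2.86 [0.70, 6.06] and 0.61 [−0.26, 1.46]. Transducers had 0.06 [−0.06, 0.19] and −0.09 [−0.21, 0.02], among them Ctnnb1 at 0.05 and −0.13. Target genes had −0.24 [−0.64, 0.17] and −0.41 [−0.78, −0.06], the latter −0.47 [−1.03, 0.06] at equal depth and 0.09 in block 6, with Axin2 at −0.91 [−2.44, 0.45] and −0.06 [−1.11, 0.93], and Ephb3 at −0.59 [−1.23, 0.02] and −0.41 [−1.01, 0.16].

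Other ligands split between the classes. Wnt5a was at 212.7 CPM in pnd0 cells with Wnt7a and 106.5 CPM in those without, 0.998 [0.36, 1.66], with 0.83 and 1.22 in blocks 1 and 2, but 0.14 [−0.62, 0.88] at pnd7. Wnt6 was at 53.2 and 115.9 CPM at pnd0, −1.12 [−2.13, −0.20], with −1.48 and −1.21 in the blocks, and had 12 counts at pnd7. Wnt4 had −0.42 [−1.22, 0.35] and −0.01 [−0.88, 0.82], and Wls 0.10 [−0.47, 0.66] and 0.05 [−0.58, 0.65]. Müllerian patterning factors had 0.10 [−0.18, 0.38] at pnd0 and 0.39 [0.15, 0.64] at pnd7, where Sox17, a factor needed for uterine glands, had 0.78 [−0.05, 1.61] and Pax2 0.15 [−0.24, 0.53]. Esr1 had 0.28 [−1.84, 2.40] and 0.41 [−0.34, 1.14], with both intervals including 0.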

How the data were processed

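The authors deposited 1 table of whole-number counts per gene and cell. Per the submitters' processing notes, which list TopHat, Cuffnorm and mouse build mm9 with no role or version, the step each served is not stated, and cells were prepared by CEL-seq, per the labels' protocols. The values were taken as raw counts. The gene annotation provided is of another build and was used for names only, so no coordinates are given.

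Levels are sums over the cells of an age or block over the total count, per 1000000 counts (CPM), with exact Poisson intervals. Ratios carry exact conditional binomial intervals and shares exact Clopper-Pearson intervals (95%). Cells were thinned at random to 1500 counts. Fold limits were 2 between ages (at least 20 counts) and 1.5 between classes of cells (at least 50 counts). Python 3.11.15, NumPy 2.4.6 and SciPy 1.17.1 were used, and the ratio and thinning code was checked on simulated counts. Count models were not run, as each age is 1 sample. A floor of 3 counts was used for limits on a count of 0.

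Wnt7a and the gene lists were chosen with earlier results of these data known. Genes alike over blocks were the first 8 by r. Genes named for the class comparison needed at least 50 counts at each age, a count in at least 10% of cells of the higher class, no cell with over 25% of the counts and 1 side in all 5 blocks, and the 10 with the largest smaller ratio of the 2 ages were taken in each direction, of which some are not reported here. Upk3a, Acot7, Ovgp1, Ltf and Hba-a1 were used after their values were known. Alternatives left out blocks, the cell with the largest count or muscle-marked cells, averaged CPM over cells, scaled by median ratios, or used other depths and count minimums. Those without the Hba-a1 cells, for cells of at least 2000 counts and for the G2 and M phase list were added after seeing the data.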

Additional observations from a re-analysis of the deposited data

How the results depend on the processing

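With 1 sample per age no result has a test, so direction and size alone were compared. Of 34 alternative values of the Wnt7a levels 33 moved by less than counting error, of 42 ratios 41 did and of 28 shares 27 did, and the one ratio that turned its direction was that of pnd7 over pnd0, which lay between −0.06 and 0.27 when each block was left out. The exceptions were block 7 and 1 depth. Leaving out each block in turn gave a pnd14 level of 44.9 to 91.4 CPM and a log2 ratio of pnd14 over pnd7 of −2.69 to −1.66, the lowest of each without block 7. Thinned to 1000 counts, the pnd0 share was 20.5%. No paired analysis was possible because each age is 1 sample and the replicate numbers only name cells.

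The comparison of cells with and without Wnt7a depended on how many counts a gene had. At least 1.5-fold higher or lower at pnd0 were 19.2% and 14.7% of genes with at least 20 counts (851 genes higher) and 8.03% and 4.95% of those with at least 100 (99 and 61 genes). At pnd7 the shares were 14.6% and 14.8% and 4.37% and 5.24% (70 and 84 genes at 100 counts). With class and levels thinned to 1500 counts 8.85% of pnd0 genes were higher (91 genes), and leaving out each pnd0 block gave 10.3% to 12.7% lower. Of the genes named, Pmpca turned to −0.036 and Utp23 to 0.57 at pnd0, and Med10 to −0.19 at pnd7, when thinned. The cause was not tested. With at least 100 counts the shares of genes at least 2-fold higher and lower were 1.52% and 1.71% for pnd7 over pnd0 and 5.87% and 7.79% for pnd14 over pnd7, 7.54% were higher at pnd28 than pnd14 and 10.3% lower at pnd56 than pnd28. At pnd56 Wnt7a rests on 6 counts, which limits each comparison with that age.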
